A study of Mus musculus with 6 samples.

Results

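Genes of cholesterol efflux and lipid handling were examined for the binding of C/EBPα, IRF8 and JUNB in mouse bone marrow-derived macrophages (BMDMs). The 9 genes were Abca1, Abcg1, Apoe, Lpl, Lrp1, Mylip, Srebf1, Srebf2 and Scd2. All peaks that the deposited annotation named for any of them were taken, which gave 163 of the 134964 peaks in the 6 chromatin immunoprecipitation sequencing (ChIP-seq) peak lists. Each factor had a list from untreated cells (control) and a list from cells exposed for 1 h to 20 ng/ml IL-4. All cells were wild-type, came from mice aged 8 to 12 weeks, and had been matured for 6 days with L929 supernatant, a source of M-CSF. The mice were on the C57BL/6 background. IL-4 is the cytokine that drives alternative macrophage polarization through the transcription factor STAT6, and the comparison asked whether the binding of the 3 factors differed soon after IL-4.

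There was 1 sample per factor and condition. No value below therefore has a replicate or a p-value, the intervals cover counting error only, and the sequencing depth is unknown. Whether a factor's samples differed through IL-4 or through depth, library kit or background cannot be told apart. The 8 macrophage marker genes examined all had peaks (154 in the 6 lists), while 3 of 4 T cell, 3 of 4 B cell and 2 of 4 neutrophil markers had any (8, 25 and 4 peaks). Peaks beside a gene are not its expression.

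Macrophages take up lipoproteins and cell debris, and export the surplus cholesterol. ABCA1 and ABCG1 are membrane transporters that pass cholesterol to apolipoprotein A-I and to HDL particles. APOE is a secreted apolipoprotein, LPL hydrolyses the triglycerides of lipoproteins, and LRP1 is an endocytic receptor for APOE-containing particles. MYLIP is a ubiquitin ligase that acts on lipoprotein uptake. SREBF1 and SREBF2 encode the SREBP transcription factors of fatty acid and cholesterol synthesis, and SCD2 is a stearoyl-CoA desaturase. Several of these genes, Abca1, Abcg1, Apoe, Mylip and Srebf1 among them, are known targets of the oxysterol-sensing liver X receptors. The study names Abca1 among the genes that IL-4 represses. C/EBPα, IRF8 and the AP-1 subunit JUNB are DNA-binding proteins that occupy macrophage enhancers.

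JUNB had the fewest peaks at these genes, 7 in control and 2 after IL-4, out of 3940 and 2325 in its whole lists. The 200 bp around the centre of each of the 7 control peaks are shown, since JUNB had the lowest ratio of IL-4 to control peak numbers (0.286) of the 3 factors. Positions are in kb from the transcription start site (TSS), negative upstream, and the sequences are from the plus strand of the RefSeq GRCm38 (mm10) genome. Capitals mark the AP-1 string TGANTCA and, in the Abca1 +39.4 kb window only, the C/EBP string TTGCNNAA as well. Its match there lies on the minus strand.
Abca1 +39.4 kb, chr4:53120421-53120620: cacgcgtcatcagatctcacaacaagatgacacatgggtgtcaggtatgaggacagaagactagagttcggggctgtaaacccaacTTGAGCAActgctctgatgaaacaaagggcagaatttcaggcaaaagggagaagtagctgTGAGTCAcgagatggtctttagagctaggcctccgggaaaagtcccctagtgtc
Abca1 +4.4 kb, chr4:53155473-53155672: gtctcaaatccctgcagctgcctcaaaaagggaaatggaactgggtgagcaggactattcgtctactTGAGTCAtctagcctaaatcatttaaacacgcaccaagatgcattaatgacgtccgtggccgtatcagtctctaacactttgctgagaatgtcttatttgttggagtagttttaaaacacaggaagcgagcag
Abca1 -21.9 kb, chr4:53181682-53181881: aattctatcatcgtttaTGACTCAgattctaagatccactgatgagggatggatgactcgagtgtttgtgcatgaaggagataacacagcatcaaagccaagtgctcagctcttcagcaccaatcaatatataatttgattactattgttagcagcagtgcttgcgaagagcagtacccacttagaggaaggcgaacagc
Abcg1 -19.1 kb, chr17:31038512-31038711: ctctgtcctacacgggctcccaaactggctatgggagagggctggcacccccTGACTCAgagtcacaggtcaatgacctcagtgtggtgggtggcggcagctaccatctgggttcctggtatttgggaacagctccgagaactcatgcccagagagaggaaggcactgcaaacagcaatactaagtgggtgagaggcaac
Apoe -0.6 kb, chr7:19699667-19699866: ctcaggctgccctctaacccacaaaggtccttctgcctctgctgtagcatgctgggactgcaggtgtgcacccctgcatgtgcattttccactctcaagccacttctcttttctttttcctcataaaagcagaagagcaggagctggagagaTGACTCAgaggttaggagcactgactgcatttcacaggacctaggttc
Lrp1 +24.4 kb, chr10:127596678-127596877: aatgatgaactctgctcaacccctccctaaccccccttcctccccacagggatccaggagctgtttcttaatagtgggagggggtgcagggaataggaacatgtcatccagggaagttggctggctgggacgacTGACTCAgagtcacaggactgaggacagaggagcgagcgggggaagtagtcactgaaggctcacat
Lrp1 -10.8 kb, chr10:127631948-127632147: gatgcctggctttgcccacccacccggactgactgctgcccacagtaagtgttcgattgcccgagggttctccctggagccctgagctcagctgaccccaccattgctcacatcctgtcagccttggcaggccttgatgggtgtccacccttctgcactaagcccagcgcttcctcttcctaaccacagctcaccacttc

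The AP-1 string, which reads the same way on both strands apart from its middle base, lay in 6 of these 7 windows. The exception was Lrp1 -10.8 kb. Over all JUNB control peaks, 55.3% of windows held it. Both JUNB windows after IL-4 held it, against 50.3% of all. The Abcg1 -19.1 kb and Lrp1 +24.4 kb windows shared a run of 18 bases that includes the AP-1 string, ctgactcagagtcacagg, and no other 2 of the 7 windows shared more than 10 bases in a row. Within the 7 windows the share of G and C ranged from 42.5% at Abca1 -21.9 kb to 60.0% at Lrp1 -10.8 kb.

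Another 3 windows are given for the highest peaks of C/EBPα and IRF8. Abca1 -27.5 kb held the highest IRF8 peak of the 9 genes, Abcg1 -17.9 kb the highest C/EBPα peak of Abcg1, and Lpl +46.0 kb the highest C/EBPα peak after IL-4. Capitals mark, in the first, a minus-strand ETS and IRF composite string that overlaps a STAT6-type string. In the second they mark a C/EBP string on the minus strand and the E-box CACGTG, and in the third a C/EBP string on the minus strand.
Abca1 -27.5 kb, chr4:53187321-53187520: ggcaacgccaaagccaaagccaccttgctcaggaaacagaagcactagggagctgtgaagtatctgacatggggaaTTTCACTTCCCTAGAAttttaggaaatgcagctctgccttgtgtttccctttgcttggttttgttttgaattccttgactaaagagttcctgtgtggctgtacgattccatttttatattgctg
Abcg1 -17.9 kb, chr17:31039720-31039919: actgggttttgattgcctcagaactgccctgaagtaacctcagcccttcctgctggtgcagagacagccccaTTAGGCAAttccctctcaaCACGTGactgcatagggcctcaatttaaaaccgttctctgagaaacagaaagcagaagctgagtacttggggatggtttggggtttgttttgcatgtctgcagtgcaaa
Lpl +46.0 kb, chr8:68926428-68926627: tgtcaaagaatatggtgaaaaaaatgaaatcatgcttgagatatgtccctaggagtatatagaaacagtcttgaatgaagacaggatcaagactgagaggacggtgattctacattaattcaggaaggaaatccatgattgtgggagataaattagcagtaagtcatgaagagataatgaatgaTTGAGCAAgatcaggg

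Across the IRF8 control peaks of the 9 genes, 7 of 38 windows (18.4%) held the ETS and IRF composite string, against 9.13% of all IRF8 control windows. After IL-4 the count was 6 of 49 (12.2%), against 8.26%. The C/EBP string was in 9 of 32 C/EBPα control windows (28.1%, all peaks 34.3%) and 8 of 35 after IL-4 (22.9%, all peaks 33.3%). A stricter form of it, with a C at the sixth base, was in 7 of 32 C/EBPα control windows (21.9%, all peaks 15.3%) and 5 of 35 after IL-4 (14.3%, all peaks 14.8%). A direct repeat of AGGTCA with a spacer of 4 bases, the classic liver X receptor element, matched in none of the member windows. It was also rare in general, at 0.0187% of the IRF8 control windows. The STAT6-type string was in 3 of 38 IRF8 control windows (7.89%, all peaks 6.05%). After IL-4 it was in 3 of 49 (6.12%, all peaks 8.53%). The E-box was in 2 of 32 C/EBPα control windows (6.25%, all peaks 3.53%). After IL-4 it was in 1 of 35 (2.86%, all peaks 3.55%). A match to a string is a description and not a measured site.

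No source gives the unit of the deposited score of a peak. It may grow with depth as well as with the strength of the peak, which could not be checked here, so it was compared only within a factor. C/EBPα had 32 member peaks in control and 35 after IL-4, out of 24486 and 24612 in the whole lists. IRF8 had 38 and 49, out of 37525 and 42076. JUNB had 7 and 2, out of 3940 and 2325. Per 1000 peaks of the list, the 9 genes therefore took 1.31 (control) and 1.42 (IL-4) C/EBPα peaks, 1.01 and 1.16 IRF8 peaks, and 1.78 and 0.860 JUNB peaks. The median member score was 14.735 and 18.41 for C/EBPα, against 11.195 and 11.22 over all peaks. For IRF8 it was 10.615 and 10.22, against 10.34 and 9.61, and for JUNB 7.91 and 6.085, against 7.88 and 6.21.

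**Figure D1:**
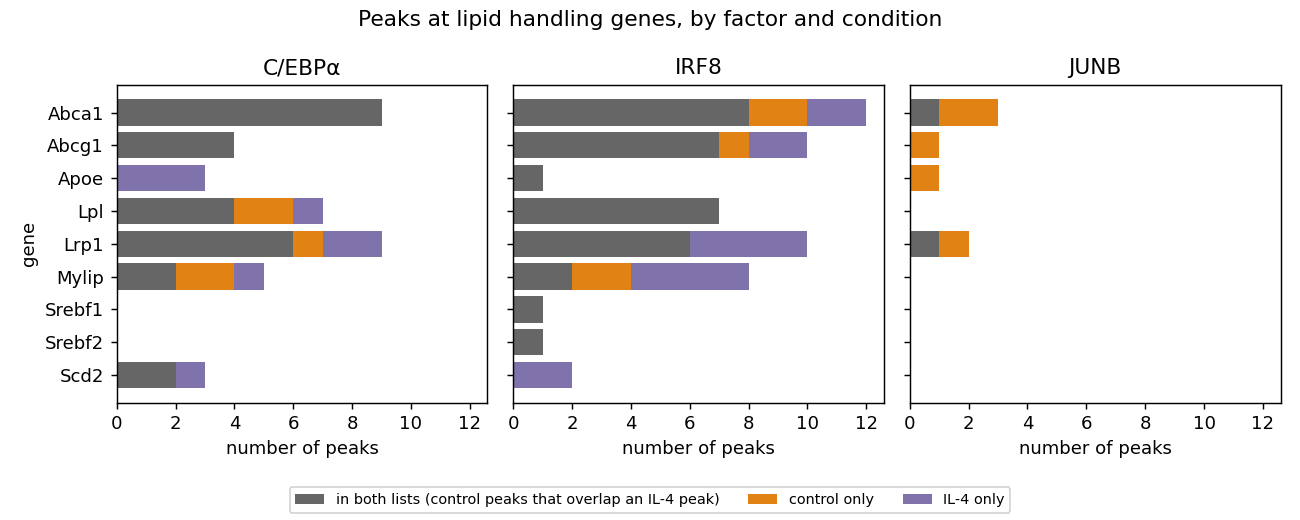
Number of peaks (horizontal axis) at each gene (vertical axis) for each factor, split into control peaks that overlap an IL-4 peak, control-only peaks and IL-4-only peaks. All 9 Abca1 peaks of C/EBPα were in both lists, whereas 5 of the 7 JUNB control peaks were control-only and none of the JUNB peaks was IL-4-only.

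Most binding lay away from promoters. Of the 163 peaks, 109 (66.9%) were 10 to 50 kb from the TSS, against 39.1% of all peaks, and 6 (3.68%) were within 1 kb, against 10.5%. The authors' annotation placed 50.9% in introns and 43.6% between genes, against 45.3% and 43.0% of all peaks. Promoter peaks made up 3.07% (5 peaks), against 7.59%, and 9.20% of the member peaks lay on a repeat by the detailed annotation, against 21.4%. When peaks that touched were merged over the 6 lists, the 9 genes had 67 regions, of which 41 were held by 1 factor, 19 by 2 and 7 by 3 factors. The 7 regions with all 3 factors were 10.4% of the 67, against 5.56% of the 60847 regions of the whole series. These counts pool both conditions. In control alone 6 of 53 regions held all 3 factors (11.3%, whole series 5.38%), and after IL-4 alone 2 of 61 (3.28%, whole series 3.08%). Abca1 had 14 regions and Lrp1 13, followed by Abcg1 with 11, Mylip with 10, Lpl with 9, Scd2 with 5, Apoe with 3, and Srebf1 and Srebf2 with 1 each.

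C/EBPα and IRF8 peaks were mostly present in both conditions. For C/EBPα, 27 of the 32 control peaks overlapped an IL-4 peak by at least 1 bp (84.4%, Wilson 95% interval 68.2% to 93.1%). The 5 control-only peaks compare with a background of 21.4% over the whole list, and the 8 IL-4-only peaks of 35 with a background of 22.0%. For IRF8, 33 of 38 control peaks were kept (86.8%, 72.7% to 94.2%), so that 5 were control-only (background 21.4%), and 14 of the 49 IL-4 peaks were IL-4-only (background 30.4%). JUNB kept 2 of 7 control peaks (28.6%, 8.22% to 64.1%). Its 5 control-only peaks stand beside a background of 64.2%, so the loss at these genes was close to that of the whole JUNB list, and 0 of its 2 IL-4 peaks were new (background 39.2%). In each factor the interval for the 9 genes held the share of the whole list.

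Peaks seen in a single condition had C/EBPα scores of at most 9.85 (control) and 8.68 (IL-4), all below the list medians. The 5 JUNB control-only peaks scored 6.06 to 11.23, with a median of 7.45 beside 7.88 over the whole list. The IRF8 control-only peaks reached 11.14 and had a median of 5.67. The IRF8 IL-4-only peaks had a median of 5.12, and 1 of them, at Mylip, scored 18.43, above its list's median of 9.61.

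Scores at peaks found in both conditions moved little for C/EBPα. Over its 27 pairs the median log2 ratio of IL-4 to control was 0.08 (quartiles -0.14 and 0.45), 16 were higher and 11 lower, and 49.7% of all pairs were higher. At least a 2-fold higher score was seen in 2 pairs (background 7.72%) and a 2-fold lower score in 0 (background 6.56%). IRF8 had 33 pairs with a median of 0.11 (-0.34 and 0.42), against 0.08 over all its pairs, with 18 higher and 15 lower (background 55.4% higher). At least 2-fold higher were 6 IRF8 pairs (background 11.3%) and 2-fold lower were 3 (background 7.96%). Both JUNB pairs were lower after IL-4, by log2 ratios of -0.47 at Abca1 and -1.07 at Lrp1, and the median over all JUNB pairs was -0.54, with 26.4% higher. The Lrp1 pair was 2-fold lower and neither pair was 2-fold higher, beside backgrounds of 29.9% and 2.99%.

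**Figure D2:**
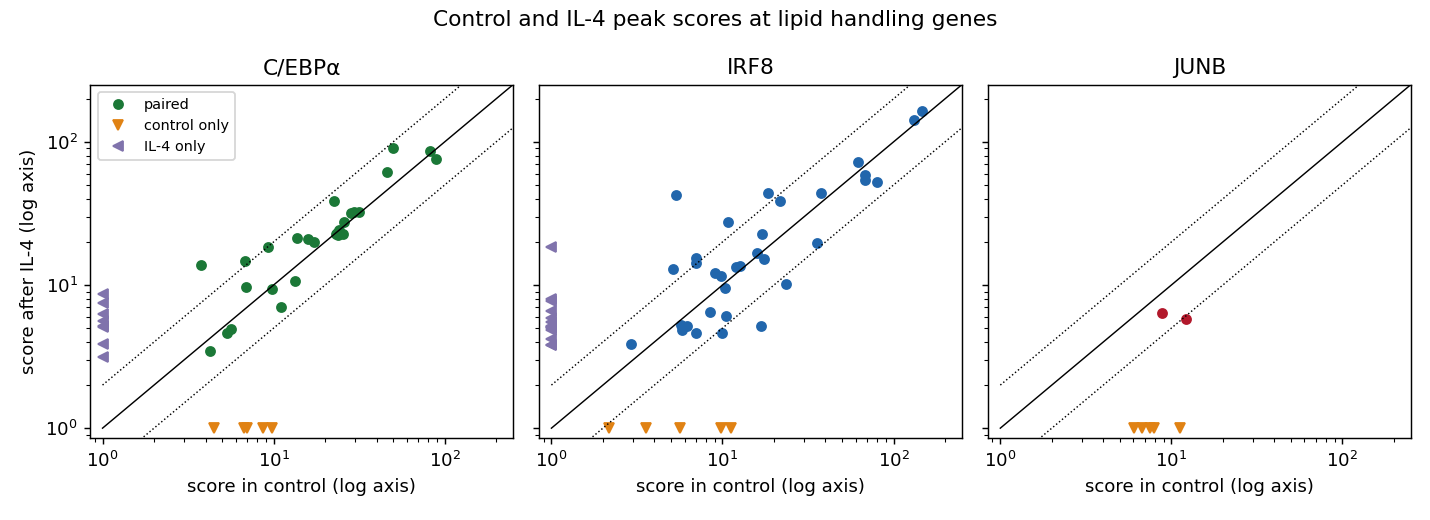
Peak score in control (horizontal, log axis) and after IL-4 (vertical, log axis) for member peaks, with paired peaks as circles and single-condition peaks as triangles at the edge. Not drawn are the Lrp1 IRF8 peaks after IL-4 at -10.8 kb (20.13, paired with the control peak named for Stat6) and +16.4 kb (7.32, unpaired). The solid line marks equal scores and the dotted lines a 2-fold difference. Most circles lie between the dotted lines, and the IRF8 point far above them is Lpl +73.5 kb (5.38 and 42.79).

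Abca1 (chr4:53030789-53159988, minus strand) carried 42 of the 163 peaks, the most of the 9 genes. No peak named for it lay in its promoter, and the nearest was the JUNB control peak 4323 bp inside the gene. Its C/EBPα binding was the same set of places in both conditions, with 9 control and 9 IL-4 peaks that overlapped throughout. Of those pairs 3 scored higher and 6 lower after IL-4 (background 49.7% higher). The highest, at +39.4 kb in an intron, scored 88.97 in control and 75.59 after IL-4. The largest difference was at +32.8 kb, where the score was 3.78 in control and 13.74 after IL-4, a 3.63-fold higher value.

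IRF8 had 10 Abca1 peaks in each condition, of which 8 were paired, 6 of them higher after IL-4 (background 55.4% higher). The highest lay at -27.5 kb and scored 146.55 in control and 165.6 after IL-4. It was followed by an intronic peak at +26.2 kb, with 131.57 and 142.04. The peak at +4.4 kb went the other way, from 79.97 to 52.84, and the one at -21.9 kb was 2.21-fold higher after IL-4 (7.0 and 15.48). The IRF8 control-only peaks were those at +39.4 kb (11.14) and at -36.0 kb (3.57). The IL-4-only ones were at +34.8 kb (7.77) and at -36.3 kb (4.85). The last lay 18 bp from the control-only peak at -36.0 kb, so this loss and gain are neighbouring calls.

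The -27.5 kb region (chr4:53187173-53187656) is the one whose window is printed with the composite string. C/EBPα was there as well, at 23.73 in control and 22.25 after IL-4, and JUNB had no peak. The primers that the study lists for an Abca1 enhancer RNA assay, tggctacaaagggtcaggtc and tcaccaaaaatccagttgctt, each matched once on chromosome 4, the only chromosome searched. The matches span chr4:53187589-53187664, a product of 76 bp. Of the 6 lists, both IRF8 lists had a peak over that product and the other 4 had none.

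JUNB held 3 Abca1 regions in control and 1 after IL-4. At -21.9 kb (chr4:53181495-53182025) JUNB scored 8.81 in control and 6.37 after IL-4. This region was in all 6 lists. The JUNB peaks at +4.4 kb (7.91) and at +39.4 kb (6.06) were control-only. At +39.4 kb the IRF8 peak was control-only too, while C/EBPα stayed in both lists. These JUNB scores were near the list's median of 7.88.

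**Figure D3:**
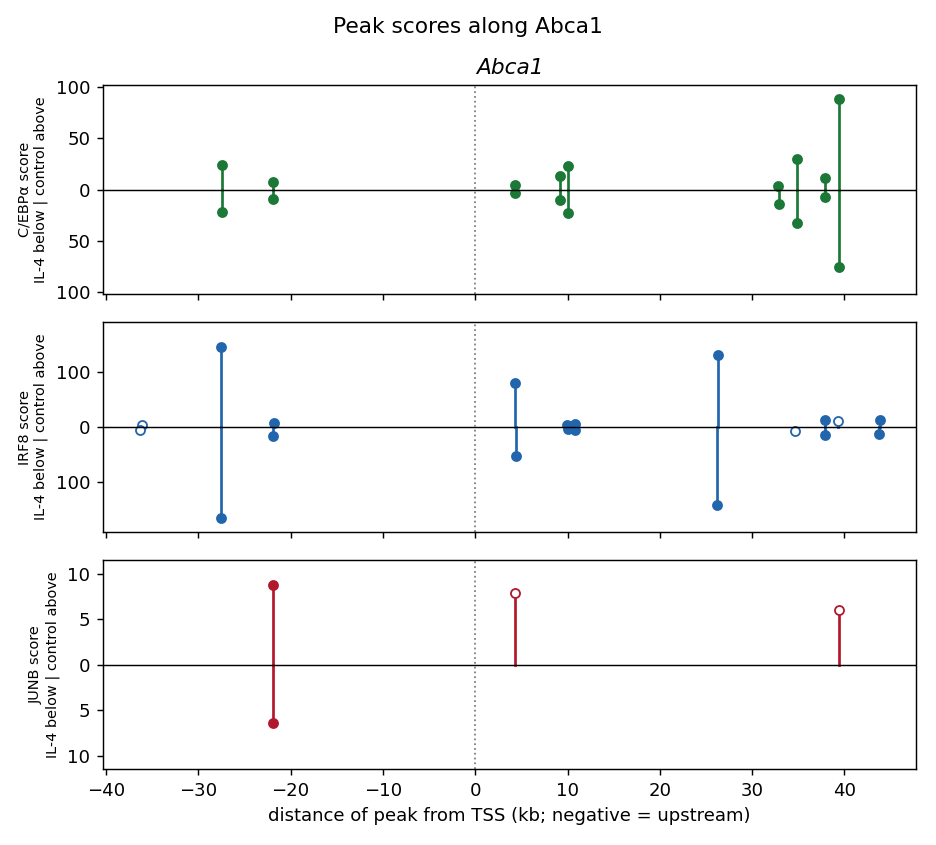
Abca1 peak scores by distance from the TSS in kb (horizontal axis), with control scores drawn upwards and IL-4 scores downwards for each factor. Filled points overlap a peak of the other condition and open points do not. C/EBPα shows the same positions above and below, while JUNB has 3 points above and 1 below.

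Beyond the peaks named for Abca1, the annotation gave others within 100 kb of the gene to a neighbouring transcript. The highest of these lay at -67.9 kb from the RefSeq start of Abca1. C/EBPα scored 92.41 in control and 105.55 after IL-4 there, and the JUNB peaks scored 12.77 and 8.01. Peak-to-gene naming by the nearest TSS left them out of the counts above.

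Abcg1 (chr17:31057694-31117984, plus strand), the second efflux transporter, had higher IRF8 scores after IL-4 at most of its pairs. Of its 7 IRF8 pairs, 5 scored higher and 2 lower after IL-4, with a median log2 ratio of 0.83, against 0.13 at Abca1 and 0.08 over all IRF8 pairs. At -17.9 kb the IRF8 score was 18.51 in control and 44.07 after IL-4 (2.38-fold). At +2.0 kb it was 10.71 and 27.55 (2.57-fold), and at +17.1 kb it was 7.03 and 14.29 (2.03-fold). The peak at -9.9 kb, on an LTR repeat, went from 21.82 to 38.8. These 3 pairs past 2-fold at Abcg1 were among the 6 at all 9 genes. They come from a single pair of samples, so the difference between Abcg1 and the other genes was not tested.

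C/EBPα had 4 Abcg1 peaks in each condition, all overlapping. The highest, at -17.9 kb, scored 81.69 and 86.45. The one at -19.1 kb (chr17:31038328-31038791) scored 9.24 and 18.41, just under 2-fold (1.99). The IRF8 score at -19.1 kb was 37.68 and 43.86, and the JUNB peak there, the only one at Abcg1, scored 11.23 in control and was not called after IL-4. That was the highest-scoring of the 5 control-only JUNB peaks. The peaks nearest to the TSS lay at +1.1 kb, where C/EBPα scored 5.6 and 4.95 and an IRF8 peak was IL-4-only (5.85). Another IL-4-only IRF8 peak was at +31.2 kb (4.2), and its only control-only peak, at -39.9 kb, scored 2.18.

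Lpl (chr8:68880555-68906932, plus strand) had no JUNB peak. Its strong peaks lay downstream of the gene body. At +46.0 kb (chr8:68926163-68926811) C/EBPα scored 49.96 in control and 90.86 after IL-4, the highest C/EBPα score of the 9 genes, while IRF8 scored 68.32 and 53.98. At +34.2 kb C/EBPα scored 45.8 and 61.6, and IRF8 61.76 and 72.79. All 4 C/EBPα pairs of Lpl were higher after IL-4, with a median log2 ratio of 0.41, beside 49.7% higher over all C/EBPα pairs.

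All 7 IRF8 peaks of Lpl were in both lists, and the neighbours at +71.5 kb and +73.5 kb moved in opposite directions. The first scored 16.71 in control and 5.16 after IL-4, a 3.24-fold lower value. The second (chr8:68953833-68954328) scored 5.38 and 42.79, a 7.95-fold higher value and the largest difference of any member pair. C/EBPα was also at +73.5 kb, at 31.52 and 32.33. The C/EBPα control-only peaks were at -26.8 kb (8.64) and +3.4 kb (4.48). The C/EBPα IL-4-only peak lay 142 bp from the TSS and scored 3.16.

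**Figure D4:**
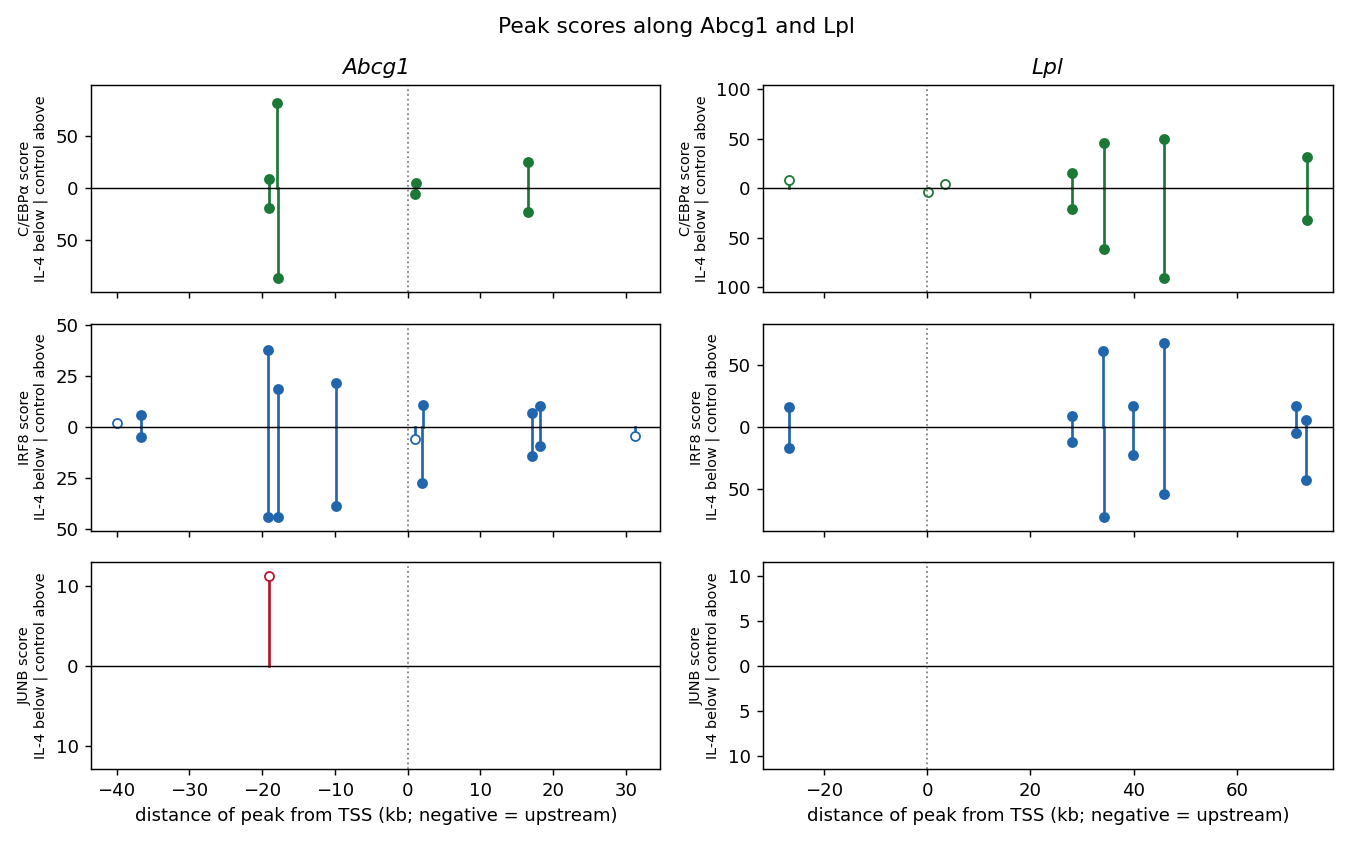
Peak scores of Abcg1 and Lpl by distance from the TSS in kb, drawn as control upwards and IL-4 downwards for each factor, with open points for peaks in a single condition. IRF8 points of Abcg1 reach further down than up at most positions, and the Lpl IRF8 peak at +73.5 kb goes from 5.38 to 42.79.

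Apoe (chr7:19696244-19701310, minus strand) was the one gene with its JUNB peak in a promoter by the deposited annotation. The region at -0.6 kb (chr7:19699545-19699937) is upstream of the TSS in that annotation but inside the RefSeq span given here. It had an IRF8 peak in both lists, with 35.69 in control and 19.74 after IL-4. JUNB was there in control only (7.45) and C/EBPα after IL-4 only (7.47). C/EBPα had 0 Apoe peaks in control and 3 after IL-4, the others lying in the last exon at +2.6 kb (6.29) and +2.2 kb (5.64). These scores are all below the C/EBPα list's median of 11.22. Stronger peaks of the same locus carried other names. The highest C/EBPα peak within 100 kb of Apoe was named for Apoc4, a neighbouring apolipoprotein gene, and scored 172.8 in control and 164.16 after IL-4.

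Lrp1 (chr10:127538157-127621148, minus strand) had IRF8 peaks of 20.13 at most. C/EBPα had 7 control and 8 IL-4 peaks with 6 pairs, and the highest score after IL-4 was 38.43, at +20.9 kb (22.64 in control). The highest C/EBPα control score was 25.78 at +16.4 kb (27.67 after IL-4). One C/EBPα peak, at +10.4 kb (6.68), was control-only. Peaks at +42.9 kb (8.68) and 25007 bp from the TSS (3.9) were IL-4-only.

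IRF8 had 6 Lrp1 peaks in control and 12 after IL-4. The increase was made of 4 IL-4-only peaks with scores of 3.79 to 6.6, of which +26.5 kb (6.6) and +30.0 kb (5.5) were the highest. A control peak at +16.4 kb also overlapped 2 separate IL-4 peaks. Another control peak was named for the neighbouring Stat6, at -10851 bp from the Stat6 TSS. The IL-4 peak that overlapped it was named for Lrp1, at -10851 bp from the Lrp1 TSS. The nearest peak to the TSS, an IRF8 peak at +2.7 kb, scored 9.94 and 4.62, and the one at +42.9 kb scored 5.12 and 13.04.

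At +24.4 kb (chr10:127596626-127596984) Lrp1 had the other region found in all 6 lists. JUNB scored 12.2 in control, its highest at the 9 genes, and 5.8 after IL-4, while C/EBPα scored 9.78 and 9.4 and IRF8 8.45 and 6.48. At -10.8 kb (chr10:127631632-127632325) JUNB was control-only (6.73). C/EBPα there scored 17.27 and 19.93, and IRF8 scored 17.99, in the peak named for Stat6, and 20.13. The latter was the highest IRF8 score at Lrp1.

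**Figure D5:**
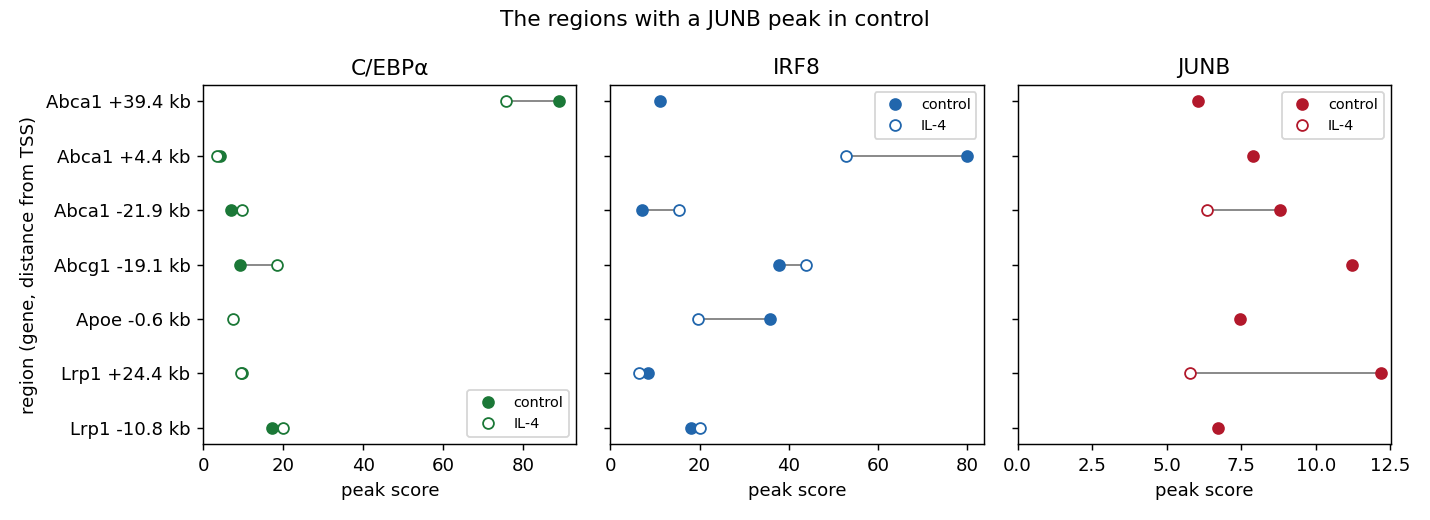
Peak scores (horizontal axis) of C/EBPα, IRF8 and JUNB in the 7 regions with a JUNB control peak (vertical axis), with filled points for control and open points for IL-4. JUNB has open points in 2 regions, Abca1 -21.9 kb and Lrp1 +24.4 kb, while IRF8 has them in 6 and C/EBPα in all 7.

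Set side by side, the 7 JUNB control regions all had IRF8 in control and 6 of the 7 had C/EBPα. Over all 3915 JUNB control regions the shares were 81.6% and 73.0%. In the 5 regions where JUNB was not called after IL-4, C/EBPα was called after IL-4 in all 5 and IRF8 in 4. Over the 2495 regions of the series with JUNB in control only, the shares were 66.3% and 77.0%. The IRF8 scores among them were lower after IL-4 at Abca1 +4.4 kb and Apoe -0.6 kb and higher at Abcg1 -19.1 kb and Lrp1 -10.8 kb.

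Mylip (chr13:45389742-45411940, plus strand) had no JUNB peak and its peaks were the most scattered. The strongest was an intergenic IRF8 peak at -122.9 kb, with 68.44 in control and 58.96 after IL-4. An IRF8 peak at -31.3 kb (chr13:45358286-45358560) was IL-4-only with a score of 18.43, the highest of all single-condition peaks at the 9 genes, and the nearest IRF8 control peak was 13150 bp away. The other IL-4-only IRF8 peaks scored 4.99 to 5.1, including the one nearest to the TSS at +2.4 kb (5.09). Control-only IRF8 peaks were at -80.6 kb (9.81) and -17.9 kb (5.67), and the peak at -78.0 kb scored 23.51 and 10.22. For C/EBPα the highest peak was at +52.9 kb (28.38 and 32.0). Its control-only peaks were at -63.6 kb (9.85) and -134.2 kb (7.01), and its IL-4-only peak was at -122.9 kb (5.19).

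The SREBP genes had little named binding. Srebf2 (chr15:82147269-82205379, plus strand) had an IRF8 peak in intron 1 at +16.6 kb, with 17.43 in control and 15.25 after IL-4. A further region inside Srebf2, in intron 15, was named for Mir33, the microRNA gene in a Srebf2 intron whose product is known to target Abca1. IRF8 scored 19.54 and 19.4 there, JUNB was control-only (5.73), and so was C/EBPα (5.75). The only Srebf1 peaks were the IRF8 peaks at -62.3 kb (10.52 and 6.04), on an LTR repeat within intron 1 of the neighbouring Tom1l2. Tom1l2 itself had an IRF8 peak that scored 79.22 in control and 67.78 after IL-4. That peak lay at -81.6 kb from the RefSeq start of Srebf1 (chr11:60224186), which is not the TSS of the deposited distances.

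Scd2 (chr19:44293676-44306864, plus strand) had C/EBPα peaks at -9.6 kb, with 6.8 in control and 14.78 after IL-4 (2.17-fold), and at +2.3 kb, with 13.62 and 21.47. Both pairs were higher after IL-4, beside 49.7% of all C/EBPα pairs. A C/EBPα peak at +1.1 kb was IL-4-only (5.08). IRF8 had 0 Scd2 peaks in control and 2 after IL-4, at -27.9 kb (8.0) and 67 bp from the TSS (3.82). JUNB had none.

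For comparison, 50 other genes of sterol and lipid handling were counted in the same way, from lipoprotein receptors such as Scarb1 to enzymes of fatty acid synthesis such as Fasn. C/EBPα had 111 control and 117 IL-4 peaks at them, with 92 control peaks kept (82.9%), 19 control-only (background 21.4%) and 26 IL-4-only (background 22.0%). IRF8 had 137 and 148 peaks, with 111 kept (81.0%), 26 control-only (background 21.4%) and 38 IL-4-only (background 30.4%). JUNB had 20 and 10 peaks, with 7 kept (35.0%), 13 control-only (background 64.2%) and 3 IL-4-only (background 39.2%). C/EBPα had peaks at 39 of the 50 genes, IRF8 at 47 and JUNB at 14. In C/EBPα, 10 of its 39 genes had more control-only than IL-4-only peaks and 13 had more IL-4-only peaks, beside 26.3% and 26.6% of all genes with a C/EBPα peak. In IRF8 the counts were 8 and 16 of 47 (20.2% and 40.6% of all genes with a peak). In JUNB they were 11 and 1 of 14 (54.7% and 17.8%). The genes with the most peaks over the 6 lists were the scavenger receptor Cd36 (47), the cholesterol 25-hydroxylase gene Ch25h (47) and the scavenger receptor Msr1 (33). Cd36, the 1 gene of those 14 with more IL-4-only JUNB peaks, had 3 JUNB peaks in control and 5 after IL-4. Of the 9 genes above only Abca1, Abcg1, Apoe and Lrp1 had any JUNB peak, and none of these had more after IL-4.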

How the data were processed

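The authors aligned ChIP-seq reads, called peaks separately for each of the 6 samples and annotated them with the nearest TSS. BWA 0.7.10, SAMtools 0.1.19, MACS2 2.0.10, HOMER 4.2 and mm10 are named in the submitters' processing notes, and the methods state a q-value limit and removal of blacklisted regions. The control library, read numbers and the kit used for each sample are not given in the sources used here. The unit of the deposited score is not given, so it was used as a score without a scale. The deposited distance to the TSS is in bp.

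Peaks were taken by their deposited gene name. A peak was shared when it met a peak of the other condition over 1 bp or more. Shared peaks were matched in order of overlap, each used once, for log2 ratios of scores. A 2-fold ratio counted as a change. Peaks of the 6 lists that touched were merged into regions. Shares carry Wilson 95% intervals. Motif strings were searched on both strands in 200 bp windows of the RefSeq GRCm38.p6 genome. With 1 sample per group no test was made.

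At each gene the highest peak per factor, each control-only or IL-4-only JUNB peak, the 2 highest such peaks of C/EBPα and IRF8, and the peak nearest to the TSS were described. Pairs past 2-fold, the Mir33, Apoc4 and Tom1l2 peaks, the 18-base run and other examples were chosen after their values were seen. The 9 genes and the lists were chosen with earlier results of these data known. Scripts ran in Python 3.11.15 with numpy 2.4.6, pandas 2.3.3 and matplotlib 3.10.9, were tested on simulated data, and overlaps were checked with bedtools 2.31.1. Alternatives changed the overlap, peak width, score minimum, list length, score scale, fold, pairing and peak-to-gene rule.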

Additional observations from a re-analysis of the deposited data

Results flagged for a closer look

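The factors differed in the direction of their peak number at the 9 genes. The number of peaks after IL-4 over that in control was 1.09 in C/EBPα, 1.29 in IRF8 and 0.286 in JUNB. These ratios rest on 32 control and 35 IL-4 peaks in C/EBPα, 38 and 49 in IRF8, and 7 and 2 in JUNB. The whole lists moved in the same directions, from 24486 to 24612 peaks in C/EBPα, 37525 to 42076 in IRF8 and 3940 to 2325 in JUNB. The difference between factors was not tested, because each factor had 1 sample per condition.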

How the results depend on the processing

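Of 104 values recomputed under an alternative, 75 stayed within their limits, 29 moved and 0 reversed. A share stayed when it lay within its Wilson interval, a count within 1.5 times, and a median log2 ratio within 0.1. By these limits overlap of at least 50% of the shorter peak, 200 bp peaks, rank matching, another pairing and a limit of 100 kb to the TSS moved none of the results they were applied to. Rank matching gave kept JUNB peaks of 2 of 5 (40.0%), with 47.2% over the whole list. Taking every peak within 100 kb of the gene body, whatever its name, gave 56 control and 61 IL-4 peaks in C/EBPα. The same rule gave 80 and 100 in IRF8, and 14 and 3 in JUNB. At a score of at least 10 the peak numbers were 19 and 21 in C/EBPα, 21 and 25 in IRF8, and 2 and 0 in JUNB. Kept control peaks were then 18 of 19 (94.7%) for C/EBPα and 0 of 2 (0.00%) for JUNB, with 81.9% and 22.7% over the whole lists. Regions with 2 and with 3 factors then numbered 9 and 1. In the 50-gene list at that minimum, IL-4 peaks already present in control were 51 of 58 (87.9%) in C/EBPα, 68 of 84 (81.0%) in IRF8 and 1 of 1 (100%) in JUNB, with 80.7%, 76.3% and 69.3% over the whole lists. Of the JUNB control peaks 1 of 6 (16.7%) was kept, with 22.7% over the whole list. Single-condition peaks scoring at least 10 numbered 0 in control and 0 after IL-4 in C/EBPα, 1 and 1 in IRF8, and 1 among the JUNB control peaks. With a fold of 1.5 instead of 2, 6 C/EBPα pairs were higher and 1 lower after IL-4, and 7 IRF8 pairs were higher and 7 lower, so the 6 against 3 at 2-fold became even. Dividing scores by the list median gave median log2 ratios of 0.21 for IRF8 and -0.43 for JUNB, with 0.19 and -0.2 over all pairs of those lists. The cause of these moves was not tested, apart from the fewer peaks left by a score minimum. No paired analysis was possible because there was 1 sample per factor and condition, and for the same reason no sample could be left out. The unknown depth limits every count of control-only and IL-4-only peaks.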
